A study of Mus musculus with 5 samples.

Results

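The nuclear-encoded genes of respiratory complexes II to V were examined in kidney cortical tissue of *Fnip1* null and wildtype mice. Genes were taken by symbol: the succinate dehydrogenase subunits *Sdha* to *Sdhd*, the *Uqcr* genes with *Cyc1*, the cytochrome c oxidase genes *Cox4* to *Cox8* with a subunit letter, and every *Atp5* gene. This rule, which uses no measured value, found 48 genes among the 24421 symbols in the files: 4 of complex II, 9 of complex III, 18 of complex IV and 17 of complex V. Of the 48, 44 had enough counts to be tested, and the other 4, *Cox4i2*, *Cox7b2*, *Cox8b* and *Cox8c*, are tissue isoforms of complex IV subunits. Sequencing of RNA was done on 1 library per mouse from 3 *Fnip1* null mice (*Fnip1*-/-, mice 8637, 9210 and 9121) and 2 wildtype mice (*Fnip1*+/+, mice 9055 and 9056), all on the C57BL6J strain and untreated. The null allele came from chemical (ENU) mutagenesis and is carried by every cell of the body, so a change in kidney cannot be assigned to a kidney cell type. The labels give neither age nor sex for single mice, and the study's text calls its control mice *Fnip1*+/- in places, whereas the labels give *Fnip1*+/+. The study's figure legend gives 3 wildtype mice for the RNA sequencing, whereas 2 are labelled here. In every sentence that lists values by mouse, the *Fnip1* null mice come in the order 8637, 9210, 9121 and the wildtype mice in the order 9055, 9056.

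The respiratory chain of the inner mitochondrial membrane passes electrons from fuels to oxygen and stores the energy as a proton gradient. Complex II (succinate dehydrogenase) links the citric acid cycle to coenzyme Q, complex III passes electrons from coenzyme Q to cytochrome c, complex IV (cytochrome c oxidase) hands them to oxygen, and complex V (ATP synthase) uses the gradient to make ATP. Complex II is encoded by nuclear genes alone, while complexes III to V combine nuclear subunits with a few from mitochondrial DNA. Tubular cells of the kidney cortex, above all those of the proximal tubule, are rich in mitochondria and reabsorb solutes with ATP made by oxidative phosphorylation. Fnip1 is a partner of folliculin that acts with the energy sensor AMPK and with mTOR.

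*Fnip1* itself, the gene named by the genotype, was at 21.0, 16.9 and 16.0 CPM in the *Fnip1* null mice and at 51.8 and 48.7 CPM in the wildtype mice (log2 fold change -1.48, SE 0.138, adjusted p = 0.0330, edgeR quasi-likelihood test). CPM are counts scaled to a common library size by the TMM method, which sets libraries to the same level over most genes, and all CPM below are on that scale. Gene counts ran from 15799114 to 19132145 per mouse, so that 3 counts equal 0.158 to 0.186 CPM. Adjusted p values are Benjamini-Hochberg values over all 13874 genes tested. Single genes were tested only through the fit across all genes, because permuting 3 and 2 mice allows no exact p under 0.1. Mouse 9121 stood apart in sex-linked genes, with *Xist* at 314 CPM and *Ddx3y* at 0, while *Xist* was at most 1.41 CPM and *Ddx3y* at least 42.8 CPM in the other 4 mice. Without this mouse 0 members passed an FDR of 5% and the median log2 fold change of the members was 0.09.

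Of the 44 tested genes of complexes II to V, 0 rose and 0 fell at an FDR of 5% by edgeR's quasi-likelihood test, where 0.526% of all tested genes rose and 0.151% fell. At an unadjusted p under 0.05, 4 of the 44 were higher in *Fnip1* null mice (*Cox7a1*, *Cox6b2*, *Cox7a2l* and *Atp5g1*) and 0 were lower, where 14.0% of all tested genes were higher and 11.2% lower. The edgeR exact test, the edgeR likelihood ratio test and DESeq2 each called 1 gene as risen, *Cox7a1*, against 6.18%, 6.81% and 6.14% of all genes, and the legacy form of the quasi-likelihood test called 0, against 0.555%. All 3 *Fnip1* null mice lay above both wildtype mice in 8 of the 44 genes (*Cox7a1*, *Cox6b2*, *Cox7a2l*, *Atp5g1*, *Atp5o*, *Cox6c*, *Cox4i1* and *Cox8a*) and below both in 1 (*Atp5s*). Of all tested genes, 22.9% lay above and 23.0% below. The median log2 fold change of the 44 was 0.08, a fold of 1.06, and 34 were positive and 10 negative. Over all tested genes the median was 0.00 and 50.5% were positive. For 40 of the 44, the 95% interval of the fold change lay between 0.667 and 1.5, so a larger change of those transcripts lies outside their intervals.

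**Figure D1:**
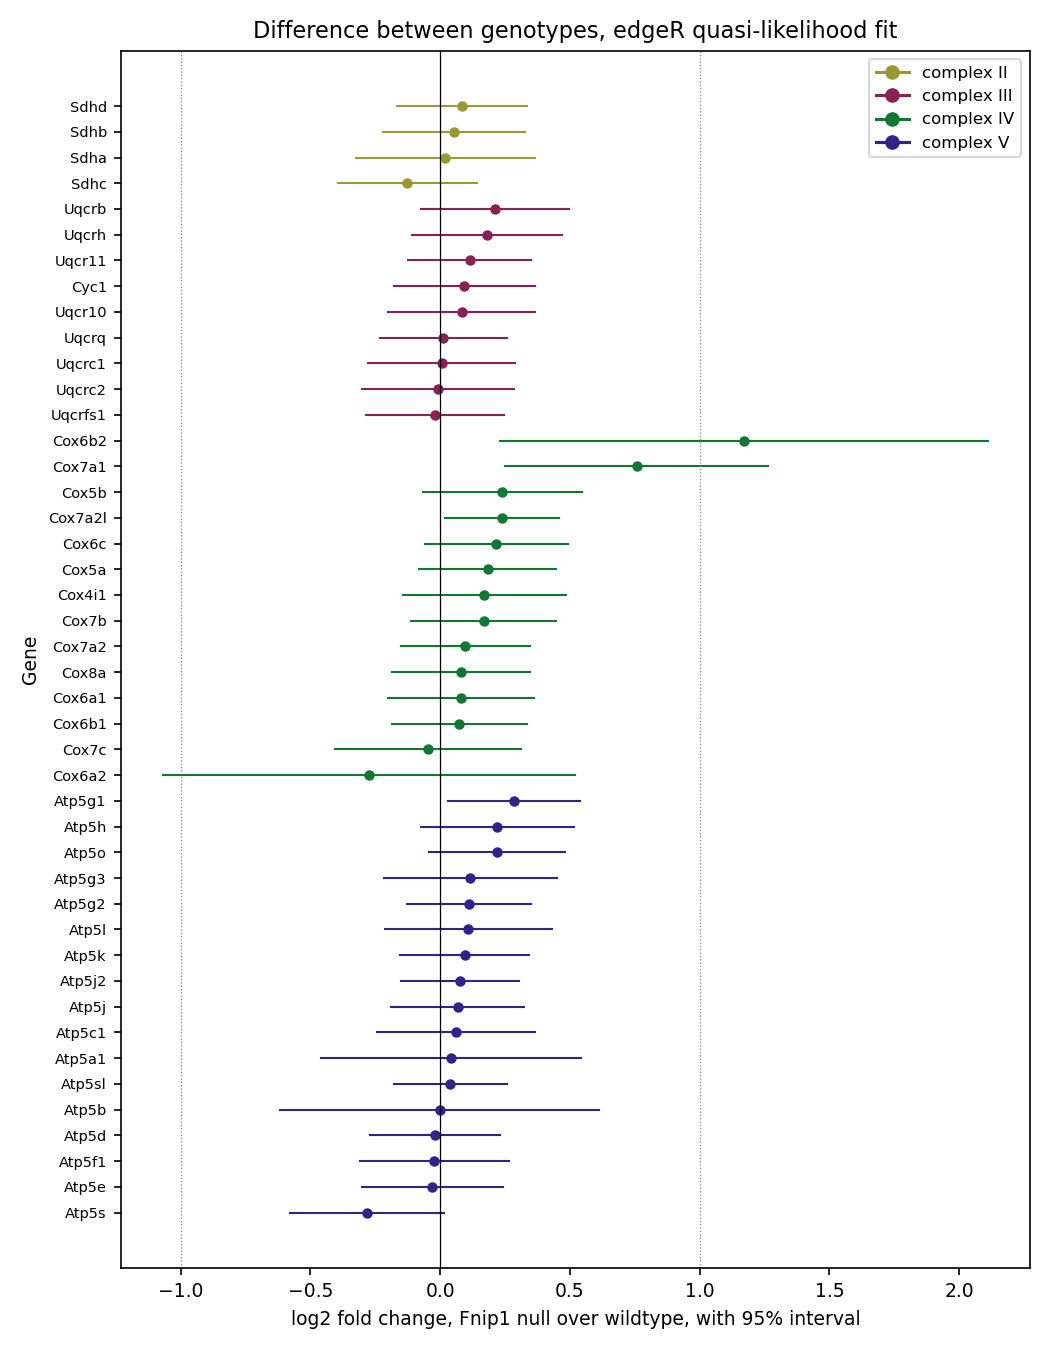
Log2 fold change of each of the 44 tested genes in *Fnip1* null over wildtype mice (x axis, points) with its 95% interval (bars), by gene (y axis) and coloured by complex; dotted lines mark a 2-fold difference. Most points lie near 0, and the furthest right are *Cox6b2* at 1.17 and *Cox7a1* at 0.76.

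Most of these genes differed in the same direction between the wildtype mice. Of the 44 tested, 41 (93.2%) were higher in wildtype mouse 9056 than in wildtype mouse 9055, with a median ratio of 1.13, while 51.4% of all tested genes were higher in 9056, with a median ratio of 1.01. Among the *Fnip1* null mice the complexes did not share an order. The summed level of complex II was highest in 8637, at 2496, 2361 and 2331 CPM. That of complex IV was lowest in 8637, at 4301, 4809 and 4628 CPM. Set against the mean of the wildtype mice, the median log2 level of the 44 genes was 0.04 in 8637, 0.15 in 9210 and 0.06 in 9121, and -0.09 in 9055 and 0.09 in 9056. The highest of the 5 mice was thus the *Fnip1* null mouse 9210 and the lowest the wildtype mouse 9055, and wildtype mouse 9056 lay above *Fnip1* null mice 8637 and 9121. The summed level of all 48 genes was 22819 ± 471 CPM (SD, n = 3) in *Fnip1* null and 21842 ± 1503 CPM (SD, n = 2) in wildtype mice, and the groups overlapped. The median log2 fold change depends on which wildtype mouse it is taken against: without 9055 it was 0.00, with 23 genes positive and 22 negative, and without 9056 it was 0.17.

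**Figure D2:**
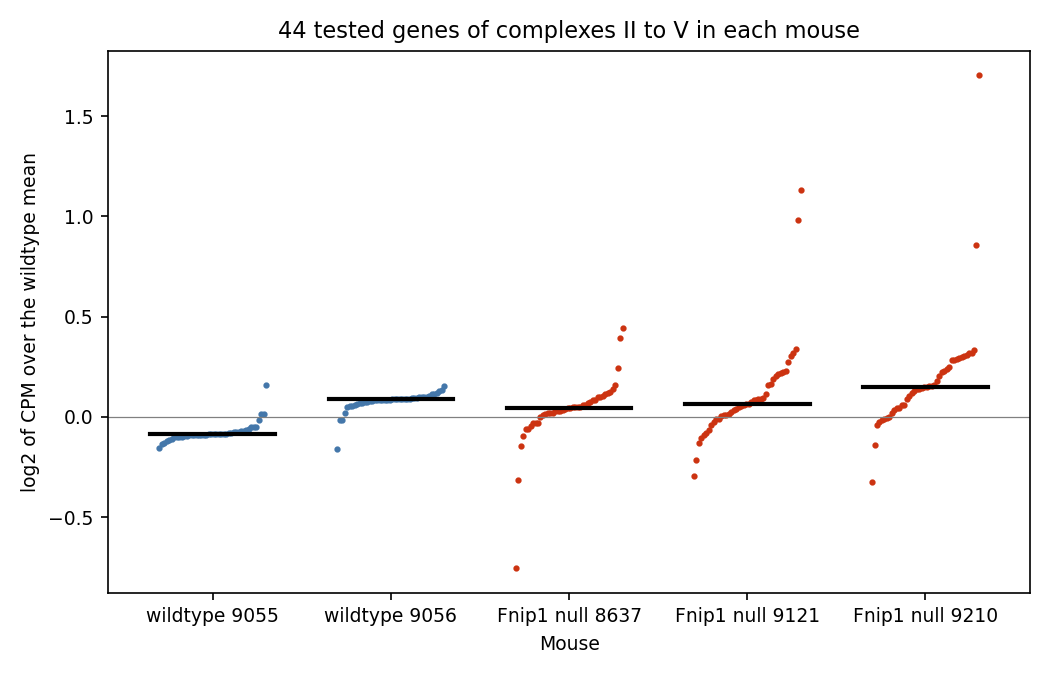
Log2 of each tested gene's CPM over its wildtype mean (y axis) in each mouse (x axis), 1 point per gene, ordered by value within a mouse; the black line is the median of the 44 genes. The lines lie at -0.09 and 0.09 in the wildtype mice and at 0.04, 0.06 and 0.15 in the *Fnip1* null mice, so the range of the wildtype medians holds those of 8637 and 9121.

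As a share of all gene counts, before any TMM scaling, the 48 genes took up 2.22%, 2.49% and 2.46% in the *Fnip1* null mice and 1.99% and 2.09% in the wildtype mice. On this scale the groups did not overlap, for the sum and for each of the 4 complexes. Complex V took the most, 1.30% ± 0.0712 (SD, n = 3) against 1.12% ± 0.0367 (SD, n = 2), and complex II the least, 0.250% ± 0.00438 against 0.222% ± 0.00952. The TMM factors were 0.984, 1.07 and 1.09 in *Fnip1* null and 0.956 and 0.914 in wildtype mice, so this scaling lowered the *Fnip1* null values relative to the wildtype values for all genes alike, and on the TMM scale the summed levels overlapped. Without TMM the median log2 fold change of the 44 was 0.25 and that of all genes 0.17, and the difference between the medians, 0.08, was as it was with TMM. Markers of several cell types moved with the genotype too. The summed level of 10 proximal tubule markers, none at 0, was 27548, 17812 and 15878 CPM in *Fnip1* null against 41311 and 45388 CPM in wildtype mice. Most of that gap was 1 gene, *Kap*, at 7952 CPM on average in *Fnip1* null and 28008 CPM in wildtype mice. The lowest sum was in 9121, the mouse that stood apart in sex-linked genes, and the part of sex was not tested. Of the 10, 7 had a negative log2 fold change, with a median of -0.32, and *Slc5a12* and *Gatm* were higher at an unadjusted p under 0.05. The sum of 5 podocyte markers, none at 0 and 3 of them risen at an FDR of 5%, was 659 to 773 CPM against 367 to 370 CPM. None of the other lists had a marker past an FDR of 5% by the quasi-likelihood test, but log2 fold changes were positive for 6 of 6 collecting duct markers (summed 688 to 999 CPM against 540 to 565 CPM), 5 of 5 endothelial markers (261 to 334 CPM against 137 to 236 CPM), 6 of 6 smooth muscle and pericyte markers (148 to 247 CPM against 106 to 127 CPM) and 7 of 8 leukocyte markers (97.4 to 212 CPM against 101 to 120 CPM). Of 7 thick ascending limb and distal tubule markers, 6 were positive, with a median log2 fold change of 0.27. Their summed levels overlapped, at 8375 to 12095 CPM in *Fnip1* null against 7893 to 8786 CPM in wildtype mice. The part of these cell types in the shares was not tested. In whole cortical tissue, a change in the number of cells of a type and a change in RNA per cell cannot be told apart.

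Levels between genes were compared per kilobase of transcript, since a longer transcript yields more reads. Levels ran over a wide range, and the highest of the 44 in wildtype mice was *Atp5b*, the catalytic beta subunit of ATP synthase, at 2214 ± 107 CPM per kilobase (SD, n = 2). It was followed by *Atp5g3* (c ring) at 1206 ± 98.9, *Atp5a1* (alpha subunit) at 1140 ± 58.3, *Cox8a* at 1052 ± 16.3, *Cox4i1* at 1022 ± 64.7 and *Cox6a1* at 1016 ± 88.5 CPM per kilobase. From *Atp5g3* to *Cox6a1* each neighbour in this order differed by less than the sum of their SDs, except *Atp5a1* and *Cox8a*. The core subunits of complexes II and III lay lower, such as *Sdha* at 394 ± 20.2, *Uqcrc1* at 383 ± 34.2 and *Sdhc* at 128 ± 14.9 CPM per kilobase. At the bottom stood *Cox7a1* at 33.7 ± 5.29, *Atp5s* at 9.57 ± 0.134, *Cox6b2* at 6.80 ± 0.897 and *Cox6a2* at 2.35 ± 0.358 CPM per kilobase. *Atp5s* and *Atp5sl* (43.1 ± 3.26 CPM per kilobase) carry *Atp5* symbols but are not subunits of the enzyme, and RefSeq now names them *Dmac2l* and *Dmac2*.

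**Figure D3:**
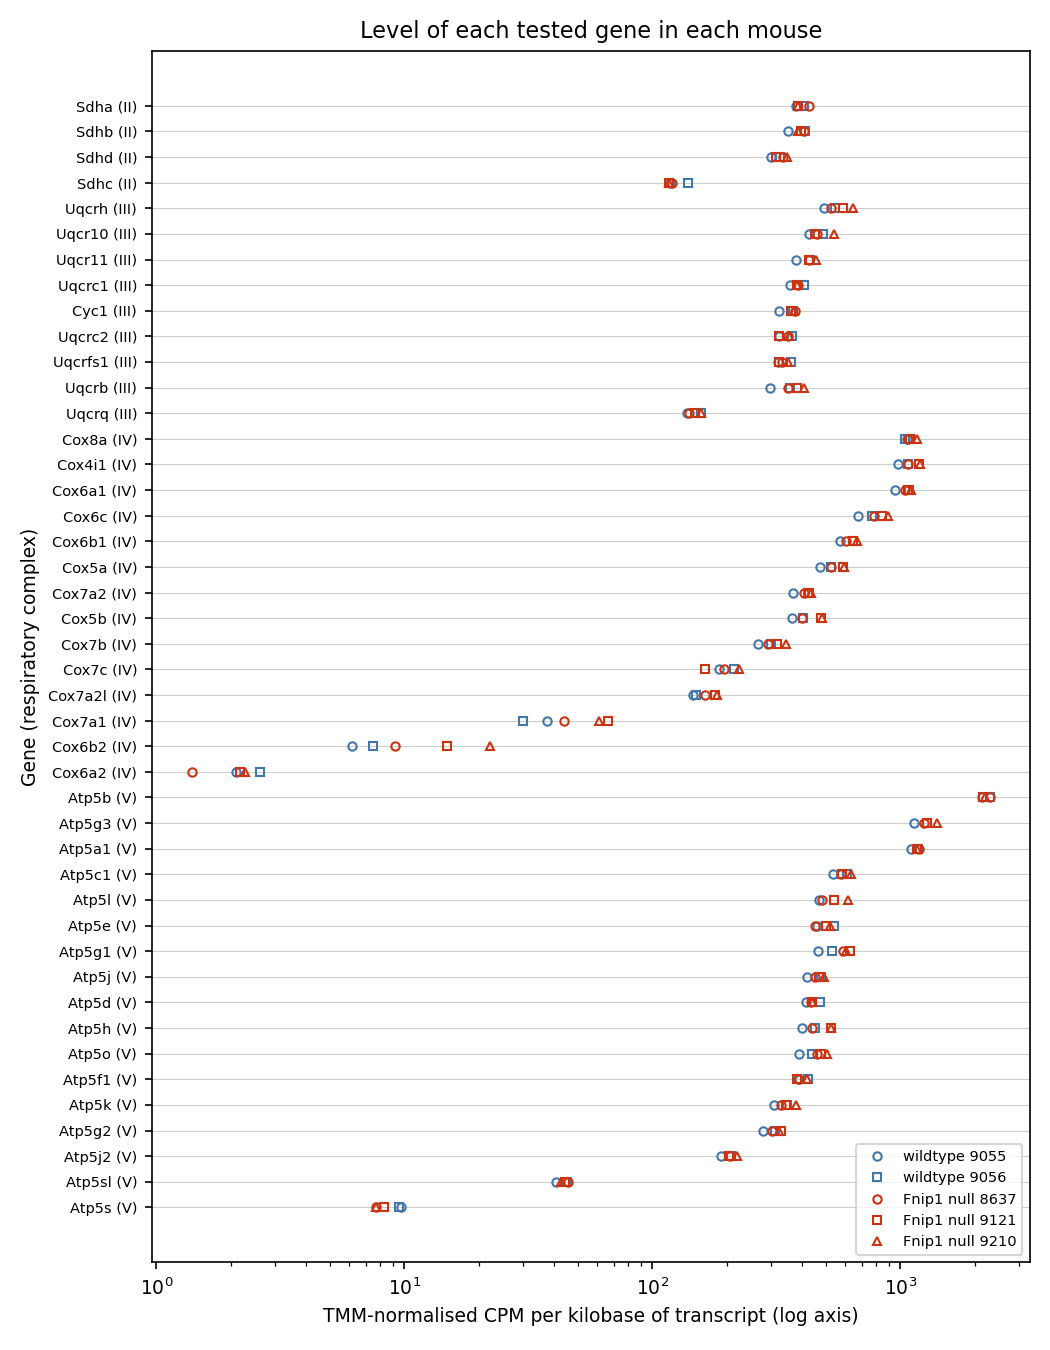
Level of each tested gene in each mouse (x axis, TMM-normalised CPM per kilobase of transcript, log axis), grouped by complex (y axis); blue marks wildtype and red *Fnip1* null mice. For most genes the 5 symbols lie on top of each other, whereas the red symbols of *Cox7a1* and *Cox6b2* lie to the right of the blue.

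Promoters of respiratory chain genes are known for binding sites of NRF1, of ETS factors such as GABP (also called NRF2), of the estrogen-related receptors (ERR) and of YY1. The E-box is the site of the MiT/TFE factors that folliculin restrains. Of the 48 genes, 37 had a promoter in the RefSeq table used (250 bases before to 50 after the start site, GRCm38.p6). A gene was counted if any of its promoters held the motif on either strand. The ETS motif CCGGAAG was in 12 of the 37 (32.4%) against 9.93% of all 27025 genes with a promoter. The NRF1 motif (GCGCA and GCGC with any base between) was in 10 (27.0%) against 5.19%. The ERR motif TCAAGGTCA was in 2 (5.41% against 0.466%), the YY1 motif AAGATGGCG in 3 (8.11% against 1.64%) and the E-box CACGTG in 5 (13.5% against 8.09%). None of the motifs contains another, and a match describes letters, not a bound site. The promoters of *Sdhd*, the membrane anchor of complex II, and *Atp5g3*, a c ring gene of complex V, are shown because each holds 3 of the 5 motifs. Those of *Cox7a1* and *Cox8b*, tissue isoforms of complex IV, are shown as well. Their levels were highest in *Fnip1* null mice 9210 and 9121, as given below. None of the 5 motifs is in these windows. The lack is not particular to tissue isoforms, since promoters of general subunits such as *Atp5b*, *Cox5a*, *Cox5b*, *Cox7a2* and *Uqcrfs1* also hold none. Capitals mark the motif matches, and each sequence is written in the direction of its gene. *Sdhd* is at chr9:50603800-50604099 on the minus strand and *Atp5g3* at chr2:73911277-73911576 on the minus strand. *Cox7a1* is at chr7:30183921-30184220 on the plus strand and *Cox8b* at chr7:140900397-140900696 on the minus strand.
Sdhd: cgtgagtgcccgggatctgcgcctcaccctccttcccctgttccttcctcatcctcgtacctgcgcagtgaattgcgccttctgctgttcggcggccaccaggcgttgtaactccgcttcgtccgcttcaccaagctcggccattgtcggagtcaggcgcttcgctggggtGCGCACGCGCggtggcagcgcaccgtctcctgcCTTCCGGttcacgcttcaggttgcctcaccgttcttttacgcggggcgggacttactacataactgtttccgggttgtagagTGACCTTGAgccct
Atp5g3: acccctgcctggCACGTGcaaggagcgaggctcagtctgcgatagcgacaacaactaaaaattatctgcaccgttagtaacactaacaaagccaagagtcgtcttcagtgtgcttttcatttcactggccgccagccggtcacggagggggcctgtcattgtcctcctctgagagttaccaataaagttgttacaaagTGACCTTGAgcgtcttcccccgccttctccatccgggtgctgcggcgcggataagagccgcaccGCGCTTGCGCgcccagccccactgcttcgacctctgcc
Cox7a1: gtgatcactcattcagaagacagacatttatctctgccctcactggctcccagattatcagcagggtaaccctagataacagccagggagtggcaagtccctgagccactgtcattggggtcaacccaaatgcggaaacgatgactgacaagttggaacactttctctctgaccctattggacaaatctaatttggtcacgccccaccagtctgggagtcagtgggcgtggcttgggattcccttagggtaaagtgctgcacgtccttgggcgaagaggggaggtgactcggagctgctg
Cox8b: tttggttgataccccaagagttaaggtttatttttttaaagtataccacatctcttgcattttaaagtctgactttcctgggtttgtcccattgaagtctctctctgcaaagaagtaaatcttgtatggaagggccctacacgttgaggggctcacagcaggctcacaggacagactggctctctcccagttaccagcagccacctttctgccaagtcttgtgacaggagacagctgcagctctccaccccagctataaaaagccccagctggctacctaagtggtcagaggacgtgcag
In *Sdhd* the NRF1 match begins 79 bases before the start site and the ETS match 46 bases before it (reverse complement), and the ERR match lies at position 37 after it (reverse complement). In *Atp5g3* the E-box begins 238 bases and the ERR match 52 bases (reverse complement) before the start, and the NRF1 match lies at position 13 after it (reverse complement).

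Complex II had the median nearest to 0 of the 4 complexes, and the groups overlapped for all 4 genes. *Sdha*, the flavoprotein that oxidises succinate, was at 1235, 1124 and 1120 CPM in *Fnip1* null and 1102 and 1185 CPM in wildtype mice. Wildtype mouse 9055 lay just below the *Fnip1* null mice and 9056 among them, and the log2 fold change was 0.02 (SE 0.143, adjusted p = 0.942). *Sdhb*, the iron-sulfur subunit, was at 467, 441 and 451 CPM against 403 and 471 CPM (log2 fold change 0.05, SE 0.114, adjusted p = 0.798). Of the membrane anchors that bind coenzyme Q, *Sdhc* had the most negative value of the complex, with 380, 368 and 370 CPM against 373 and 440 CPM (log2 fold change -0.13, SE 0.110, adjusted p = 0.505). Here 1 wildtype mouse, 9055, lay among the *Fnip1* null mice and the other above them. *Sdhd* had the most positive, with 414, 428 and 389 CPM against 371 and 403 CPM (log2 fold change 0.08, SE 0.104, adjusted p = 0.639). The median of the 4 was 0.04, and 3 were positive.

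In complex III, 7 of the 9 genes were positive, the median log2 fold change was 0.08, and the groups overlapped for all 9. The core proteins *Uqcrc1* and *Uqcrc2*, which carry the large matrix part of the complex, differed by 0.01 (SE 0.116, adjusted p = 0.982) and -0.01 (SE 0.122, adjusted p = 0.974) on the log2 scale. For *Uqcrc1* the values were 641, 631 and 635 CPM against 594 and 673 CPM, so the *Fnip1* null mice lay between the wildtype mice. Of the redox subunits, *Uqcrfs1* (the Rieske iron-sulfur protein) was the lowest of the complex, with 455, 480 and 443 CPM against 438 and 493 CPM (log2 fold change -0.02, SE 0.110, adjusted p = 0.928). *Cyc1* (cytochrome c1) was at 571, 563 and 548 CPM against 494 and 558 CPM (log2 fold change 0.09, SE 0.112, adjusted p = 0.635). The most positive was *Uqcrb*, a small subunit near the coenzyme Q site, with 188, 218 and 204 CPM against 160 and 191 CPM. Its log2 fold change was 0.21 (SE 0.118, adjusted p = 0.307), and mouse 8637 lay below wildtype mouse 9056. The other small subunits lay between, with log2 fold changes of 0.01 for *Uqcrq*, 0.08 for *Uqcr10*, 0.11 for *Uqcr11* and 0.18 for *Uqcrh*.

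Complex IV had the highest median, 0.17, with 12 of 14 tested genes positive and 6 with all *Fnip1* null mice above both wildtype mice, as were 22.9% of all tested genes. Among the subunits every cell uses, *Cox4i1*, the nuclear subunit that binds regulating nucleotides, was at 797, 890 and 882 CPM against 727 and 795 CPM. The groups did not overlap, but 8637 and 9056 nearly met, and the log2 fold change of 0.17 (SE 0.130) had an adjusted p of 0.447. *Cox5a* was at 339, 383 and 377 CPM against 306 and 339 CPM (log2 fold change 0.18, SE 0.109, adjusted p = 0.335), and *Cox5b* at 346, 418 and 414 CPM against 315 and 351 CPM (0.24, SE 0.127, adjusted p = 0.285). In both, mouse 8637 lay among the wildtype mice and the other *Fnip1* null mice above them. *Cox6c*, a small membrane subunit, was at 395, 449 and 422 CPM against 340 and 386 CPM, with no overlap (log2 fold change 0.22, SE 0.114, adjusted p = 0.285). The other general subunits differed less, with log2 fold changes of 0.17 for *Cox7b*, 0.10 for *Cox7a2*, 0.08 for both *Cox8a* and *Cox6a1*, 0.07 for *Cox6b1* and -0.05 for *Cox7c*.

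*Cox7a2l* is listed with complex IV by its symbol, but its product links complexes III and IV into supercomplexes, and C57BL/6 strains are known to carry a shortened form. It was at 175, 195 and 192 CPM in *Fnip1* null mice and at 157 and 161 CPM in wildtype mice. All 3 *Fnip1* null mice lay above both wildtype mice, and the log2 fold change was 0.24 (SE 0.0909, adjusted p = 0.178).

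The largest values belonged to tissue isoforms of complex IV, which replace the general form of a subunit in muscle, brown fat, lung or testis. *Cox7a1*, the heart and skeletal muscle form of subunit 7a (GRCm38 chr7:30184144-30186078), was at 17.3, 23.8 and 26.0 CPM in *Fnip1* null and 14.7 and 11.8 CPM in wildtype mice. No value overlapped, with 9210 and 9121 well above the rest and 8637 near wildtype mouse 9055. The log2 fold change was 0.76 (SE 0.210, 95% interval 0.25 to 1.26, adjusted p = 0.111 by the quasi-likelihood test). For the same contrast, the adjusted p was 0.0281 by the exact test, 0.0260 by the likelihood ratio test and 0.0284 by DESeq2. *Cox6b2*, the testis form of subunit 6b (chr7:4751792-4753094), was at 3.89, 9.33 and 6.28 CPM against 2.61 and 3.15 CPM. Here too 8637 lay just above the wildtype mice and 9210 and 9121 further up, with a log2 fold change of 1.17 (SE 0.390, 95% interval 0.23 to 2.11, adjusted p = 0.143).

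*Cox8b*, the heart and muscle form of subunit 8 (chr7:140898945-140900446), had 4, 36 and 46 counts in *Fnip1* null mice and 2 and 2 counts in wildtype mice, and was left out of the test by the count filter. Relative to the summed wildtype counts, the ratio was 1.98 (95% interval 0.369 to 10.6) in 8637, 18.0 (6.44 to 69.5) in 9210 and 20.4 (7.44 to 78.0) in 9121. These are Clopper-Pearson intervals on the share of counts and cover counting error only. Mouse 8637 was thus not distinguished from the wildtype mice at this depth, and 9210 and 9121 were. With the filter removed, the quasi-likelihood test gave *Cox8b* a log2 fold change of 3.67 and an adjusted p of 0.147. *Cox6a2*, the muscle form of subunit 6a, did not share this order, with 0.943, 1.55 and 1.48 CPM against 1.43 and 1.77 CPM (log2 fold change -0.27, SE 0.329, adjusted p = 0.629). *Cox4i2*, the lung form of subunit 4, had 8, 9 and 21 counts against 16 and 4 counts, with overlap, and *Cox7b2* and *Cox8c*, forms known from testis, had 0 counts in all 5 libraries, which allows up to 0.158 to 0.186 CPM per library.

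Per length, the share of subunit 7a transcripts from *Cox7a1* was 9.78%, 12.2% and 13.4% in *Fnip1* null mice and 9.22% and 6.61% in wildtype mice, the rest being *Cox7a2*. *Cox6b2* made up 1.50%, 3.21% and 2.26% of subunit 6b transcripts against 1.07% and 1.14%. *Cox8b* made up 0.0610%, 0.506% and 0.612% of subunit 8 transcripts against 0.0325% and 0.0305%. In all 3 the *Fnip1* null mice lay above both wildtype mice, with 8637 nearest to them, and the general form still supplied most transcripts. For *Cox8b* in 8637 this rests on 4 counts against 2 and 2, which were not distinguished. By CPM, 22.9% of all tested genes lay above both wildtype mice. For *Cox6a2* the shares were 0.132%, 0.206% and 0.202% against 0.220% and 0.241%, with every *Fnip1* null mouse lower. These shares rest on few *Cox6a2* counts, 16, 26 and 28 against 23 and 31. For *Cox4i2* they were 0.0606%, 0.0616% and 0.129% against 0.140% and 0.0295%, and overlapped.

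Adipocyte markers were also highest in 9210 and 9121, an order not particular to fat. Summed collecting duct markers were at 688, 999 and 895 CPM against 540 and 565 CPM. Endothelial markers were at 261, 294 and 334 CPM against 236 and 137 CPM, and smooth muscle and pericyte markers at 148, 247 and 193 CPM against 127 and 106 CPM. Podocyte and leukocyte sums shared this order, and those of proximal tubule, thick ascending limb and striated muscle markers did not. The summed level of 7 adipocyte markers was 54.3, 357 and 167 CPM in *Fnip1* null mice and 36.7 and 36.1 CPM in wildtype mice. *Adipoq* (adiponectin) was at 0.589, 22.1 and 8.98 CPM against 0.497 and 1.32 CPM, and *Cfd* (adipsin) at 3.54, 151 and 49.8 CPM against 2.49 and 6.46 CPM. Mouse 8637 thus lay with the wildtype mice for both genes, and none of the 7 markers was at 0 in all mice. Of these 2 mice, the summed fat markers and *Cox6b2* were higher in 9210 and *Cox7a1* in 9121, while the *Cox8b* counts of the pair have overlapping intervals. The summed level of 5 brown adipocyte markers, none at 0 in all mice, was 7.60, 9.04 and 8.87 CPM against 4.78 and 4.12 CPM, most of it *Cpt1b*, and here 8637 lay with the other *Fnip1* null mice. *Ucp1*, the defining gene of brown fat, was at 0, 1.07 and 0.317 CPM against 0.0621 and 0 CPM. Of the 11 striated muscle markers, *Myh4* was at 0 in all mice, and their summed level was 14.5, 8.98 and 14.4 CPM against 8.76 and 8.12 CPM, while all 5 testis markers were at 0. The part of these cell types in the isoform values was not tested. Leaving out 9210 and 9121, with 1 *Fnip1* null mouse left and its spread taken from the other mice, no member passed an FDR of 5%. Without 8637, of the members tested with all mice *Cox7a1* (log2 fold change 0.91, adjusted p = 0.0155) and *Cox6b2* (1.43, adjusted p = 0.0217) passed, where 10% of all tested genes rose. *Cox8b* passes the count filter in that setting through its counts in 9210 and 9121, so its call there is not counted as support.

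**Figure D4:**
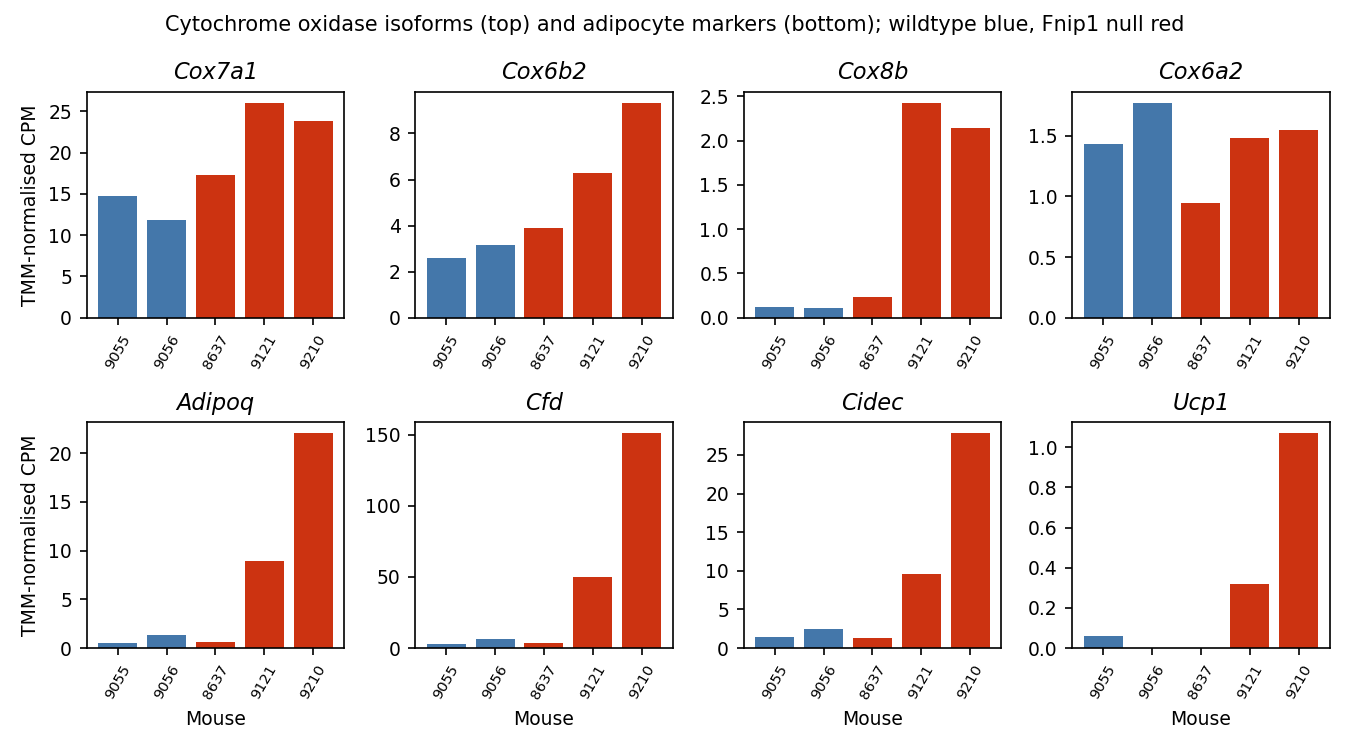
TMM-normalised CPM (y axes, each from 0 on its own scale) in each mouse (x axes) for 4 tissue isoforms of cytochrome oxidase (top) and 4 fat markers (bottom), wildtype in blue and *Fnip1* null in red. *Cox7a1*, *Cox6b2* and *Cox8b* and the fat markers are highest in 9210 and 9121, while *Cox6a2* shows no such split.

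In complex V, 12 of 17 genes were positive, the median log2 fold change was 0.07, and 2 genes lay above and 1 below both wildtype mice without overlap, as did 22.9% and 23.0% of all tested genes. The catalytic subunits of the F1 head did not differ beyond the spread between mice. *Atp5b* was at 4393, 4199 and 4120 CPM in *Fnip1* null and 4097 and 4388 CPM in wildtype mice (log2 fold change -0.00, SE 0.254, 95% interval -0.62 to 0.61, adjusted p = 0.997). *Atp5a1* was at 2931, 2880 and 2889 CPM against 2714 and 2918 CPM (0.04, SE 0.207, adjusted p = 0.916), and *Atp5c1*, the gamma subunit of the turning stalk, at 671, 740 and 675 CPM against 624 and 708 CPM (0.06, SE 0.126, adjusted p = 0.787). For each of these genes at least 1 *Fnip1* null mouse lay between the wildtype mice. The other F1 subunits gave log2 fold changes of -0.02 for *Atp5d* (delta) and -0.03 for *Atp5e* (epsilon).

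The c ring, which turns as protons cross the membrane, is made of a single protein from 3 genes that differ only in the part removed on import. The most positive gene of complex V was 1 of them, *Atp5g1* (chr11:96068852-96075670), at 350, 360 and 374 CPM against 277 and 316 CPM. All *Fnip1* null mice lay above both wildtype mice, with a log2 fold change of 0.28 (SE 0.105, 95% interval 0.03 to 0.54, adjusted p = 0.168). *Atp5g2* was at 221, 237 and 241 CPM against 203 and 228 CPM (0.11, SE 0.0987, adjusted p = 0.512), and *Atp5g3* at 885, 1004 and 909 CPM against 811 and 911 CPM (0.12, SE 0.138, adjusted p = 0.628), both with overlap. Per length, *Atp5g1* gave 27.6%, 25.9% and 28.1% of c ring transcripts in *Fnip1* null mice and 24.7% and 25.1% in wildtype mice. *Atp5g3* gave the most, at 57.1% to 60.2% in *Fnip1* null and 60.2% to 60.5% in wildtype mice. *Atp5g1* and *Atp5g2* share 66.0% and 87.4% of their 50-base stretches with annotated pseudogenes, and reads from such stretches may have been left out, so the split between the 3 genes is uncertain.

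Of the stalk and membrane subunits, *Atp5o*, which joins the head to the side stalk, was at 387, 426 and 399 CPM against 326 and 368 CPM without overlap (log2 fold change 0.22, SE 0.108, adjusted p = 0.261). *Atp5h*, a side stalk subunit, gave 0.22 as well, with overlap, and the other side stalk genes gave 0.07 (*Atp5j*) and -0.02 (*Atp5f1*). The membrane subunits *Atp5j2*, *Atp5k* and *Atp5l* gave 0.08, 0.09 and 0.11. *Atp5s* (chr12:69724950-69744660) was the most negative gene under the *Atp5* symbol, at 11.4, 11.4 and 12.3 CPM against 14.4 and 14.1 CPM. All *Fnip1* null mice lay below both wildtype mice, with a log2 fold change of -0.28 (SE 0.123, adjusted p = 0.215). *Atp5sl* was at 66.7, 62.7 and 65.1 CPM against 59.7 and 66.5 CPM (0.04, SE 0.0904, adjusted p = 0.816), with overlap.

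The size of the difference varied with transcript length among these genes. Over the 44 genes, the Spearman correlation of log2 fold change with transcript length was -0.50, while it was -0.02 over 13296 genes with a length. Over the same 44 genes, the log2 ratio of wildtype mouse 9056 to wildtype mouse 9055 had a correlation with length of -0.33, so a relation of the same sign was seen within 1 genotype; genes share libraries and are not independent points. The 19 genes with transcripts under 700 bases had a median log2 fold change of 0.11, with 16 positive, and the 25 longer ones 0.05, with 18 positive. All 19 belong to complexes III to V, since the 4 genes of complex II have longer transcripts. Over all genes the medians were 0.07 for 376 genes under 700 bases and 0.00 for 12920 longer genes. For 13 of the 48 genes, over 10% of 50-base stretches also occur in another gene (beside *Atp5g1* and *Atp5g2*, most in *Atp5l* at 68.5%, *Cox7c* at 53.0%, *Atp5h* at 50.5% and *Uqcrb* at 43.2%), mostly pseudogenes, so their levels are uncertain, while 26 genes share none.

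Genes that work with these complexes were taken from lists of their own. Of the 37 tested assembly factors for complexes II to V, 0 rose and 0 fell at an FDR of 5% by the quasi-likelihood test, and DESeq2 and edgeR's exact and likelihood ratio tests also called 0. At an unadjusted p under 0.05, 0 were higher and 2 lower by the quasi-likelihood test, where 14.0% and 11.2% of all tested genes were, and 27 of the 37 were negative, with a median of -0.09. The lowest was *Cox15*, which makes the heme of complex IV, at 115, 92.1 and 80.2 CPM against 130 and 131 CPM, with all *Fnip1* null mice below both wildtype mice (log2 fold change -0.45, SE 0.152, adjusted p = 0.146). The highest was *Uqcc2*, which aids synthesis of cytochrome b for complex III, at 27.9, 36.5 and 36.0 CPM against 26.1 and 27.7 CPM (0.32, SE 0.144, adjusted p = 0.232). Without TMM this list's median turned positive, to 0.07, still below the median of all genes on that scale, 0.17. On either scale, with all mice, the subunits' median lay above that of all genes and the assembly factors' below it. Without wildtype mouse 9055 the subunits' median was 0.0027 and that of all genes 0.0040. Without wildtype mouse 9056 the assembly factors' median was -0.0041 and that of all genes 0.0086. The difference between the lists was not tested.

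Of 18 tested genes for electron carriers and coenzyme Q synthesis, 15 were negative, with a median of -0.18. By the quasi-likelihood test 0 passed an FDR of 5%, and 0 were higher and 5 lower at an unadjusted p under 0.05, where 11.2% of all tested genes were lower. EdgeR's exact and likelihood ratio tests and DESeq2 each called *Pdss1* and *Coq3* as fallen, where 3.63%, 3.80% and 4.09% of all tested genes fell. *Coq3*, a methyltransferase of the pathway, was at 19.1, 16.9 and 16.7 CPM against 26.8 and 24.8 CPM, with all *Fnip1* null mice lower (log2 fold change -0.56, SE 0.117, adjusted p = 0.0779 by the quasi-likelihood test and 0.0146 by the exact test). *Pdss1*, which makes the side chain of coenzyme Q, was at 17.2, 12.8 and 11.6 CPM against 24.4 and 28.0 CPM, with no overlap (log2 fold change -0.92, SE 0.190, adjusted p = 0.0763 by the quasi-likelihood test and 0.00166 by the exact test). *Coq7*, a hydroxylase late in the pathway, was the most positive, at 36.5, 39.0 and 41.9 CPM against 33.0 and 35.7 CPM (0.19, SE 0.105, adjusted p = 0.308). A further list held the ATP synthase inhibitor, carriers of its substrates and other genes associated with the enzyme. Of its 6 tested genes, 5 were positive and 0 passed by the quasi-likelihood test, with 1 higher at an unadjusted p under 0.05, *Slc25a4*. *Slc25a4*, the heart and muscle form of the ADP/ATP carrier, was at 482, 570 and 535 CPM against 322 and 345 CPM, with no overlap (0.67, SE 0.119, adjusted p = 0.0651). It was called as risen by the exact test (adjusted p = 0.00628), the likelihood ratio test and DESeq2. *Atpif1*, the ATP synthase inhibitor, was at 194, 191 and 208 CPM against 199 and 237 CPM (-0.14, SE 0.108, adjusted p = 0.444). Of 7 supercomplex and cytochrome oxidase modulators, 4 were positive and 0 passed by any of these tests, with *Cox7a2l* the highest and *Higd2a*, an assembly aid, the lowest at -0.13 (adjusted p = 0.457).

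Complex I and the mitochondrial ribosome gave further points of reference. The 45 *Nduf* genes were taken by symbol and are mostly complex I subunits and their assembly factors. They had a median log2 fold change of 0.02, with 27 positive and 0 passing by any of the 4 tests. By the quasi-likelihood test, values ran from *Ndufaf6* at -0.39 (SE 0.127, adjusted p = 0.136) to *Ndufs5* at 0.25 (SE 0.212, adjusted p = 0.482). The 77 mitochondrial ribosome genes had a median of -0.11, with 18 positive and 0 passing by the quasi-likelihood and exact tests. The likelihood ratio test and DESeq2 called 1, *Mrps18b*, as fallen, where 3.80% and 4.09% of all tested genes fell. Log2 fold changes of the list ran from *Mrps18b* at -0.44 (SE 0.114, adjusted p = 0.102) to *Mrps6* at 0.40 (SE 0.195, adjusted p = 0.257). At an unadjusted p under 0.05 by the quasi-likelihood test, 0 of the 45 *Nduf* genes were higher and 2 lower. For the 77 ribosome genes, 1 was higher and 14 lower. Of all tested genes, 14.0% were higher and 11.2% lower. Both lists also followed the wildtype pair, with 44 of 45 and 73 of 77 genes higher in 9056 than in 9055. Without TMM the median of the ribosome list was 0.05, again below that of all genes. None of the 13 subunits encoded by mitochondrial DNA was found under its *mt-* symbol among the symbols counted, so they were not analysed here.

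**Figure D5:**
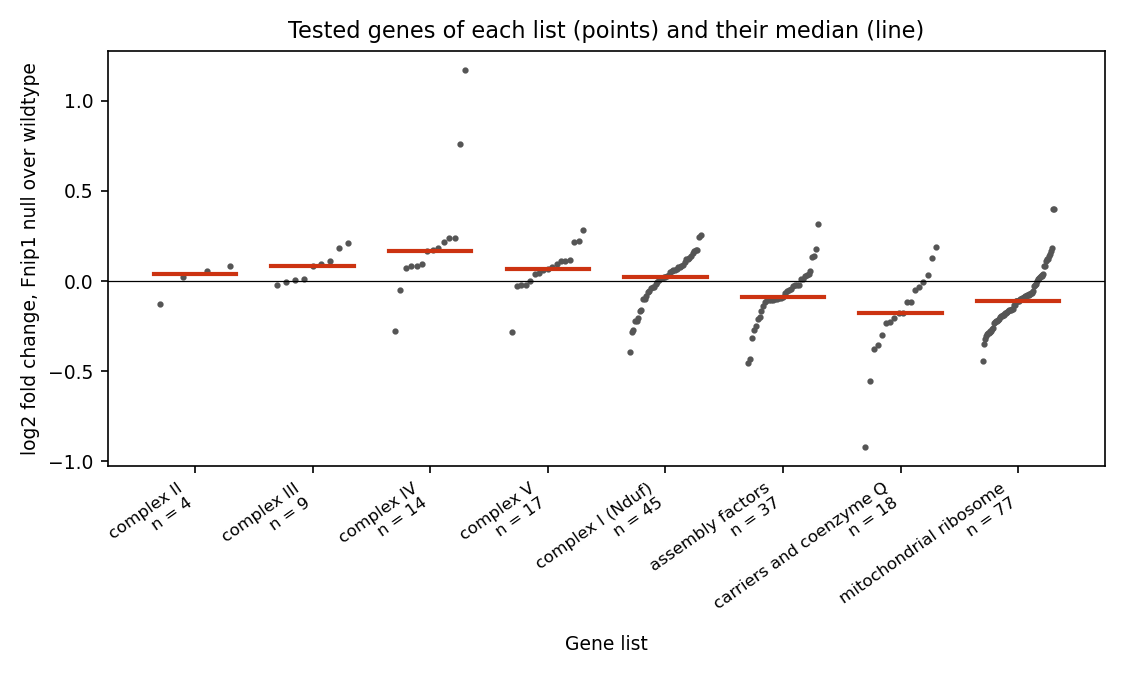
Log2 fold change in *Fnip1* null over wildtype mice (y axis) of every tested gene of each list (x axis, points, ordered by value) with the list's median (red line). Medians run from 0.17 in complex IV to -0.18 in the carriers and coenzyme Q genes, and none of the genes shown passed an FDR of 5% by the quasi-likelihood test.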

How the data were processed

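RNA from frozen kidney cortex was prepared with a TruSeq kit and read as paired ends on a HiSeq by the authors. The authors removed low quality reads, aligned the rest to UCSC mm10 with TopHat v2.1.0 and counted them per gene with HTSeq v0.6.1. The deposited values are these raw counts. Strand setting and annotation release are not given in the sources used here. HTSeq's summary lines (39.0% to 42.8% of reads, mainly reads with no unique place) were left out of library sizes.

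Each library is a separate mouse. In R 4.3.3, edgeR 4.0.16 (limma 3.58.1) was used with TMM scaling. Genes with under 10 counts in over 2 of 5 mice were left out, which kept 13874 of 17850 genes with a count. Genotypes were compared with the quasi-likelihood test and Benjamini-Hochberg adjustment over all tested genes. Standard errors are the log2 fold change over the root of the F statistic, and errors of levels are SD. The test was also run on counts simulated from the means and dispersions of these data. Python 3.11.15, pandas 2.3.3, scipy 1.17.1 and matplotlib 3.10.9 served for the rest. Lengths are the shortest RefSeq-matched transcript in GENCODE M21 (GRCm38). In all, 16 alternatives were planned (DESeq2 1.42.0 among them) and 1 was added after seeing the data, without 9210 and 9121.

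The gene set and lists were chosen with earlier results of these data known. Named are members past an FDR of 5%, the extremes of each complex, core subunits, isoform pairs, non-subunits and the extremes of each list. Other genes were named after their values were seen.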

Additional observations from a re-analysis of the deposited data

How the results depend on the processing

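At an FDR of 5% the quasi-likelihood test called 0 members under every scaling and filter tried, at an FDR of 10%, with its legacy form and without mice 9210 and 9121. DESeq2 and edgeR's exact and likelihood ratio tests called 1 as risen (*Cox7a1*). Leaving out single mice gave 0 to 3 risen and 0 to 2 past 2-fold, the 3 and 2 without 8637, where *Cox8b* is among both counts and passes the filter only through its counts in 9210 and 9121. The cause was not tested. Members above both wildtype mice were 19 with upper quartile scaling, 34 without TMM, 15 without 9210 and 9121, and 8 to 38 with single mice left out (38 without 9056), beside 27.4%, 37.2%, 37.9% and 25.3% to 34.6% of all genes (31.3% without 9056). Members below both were 0, 3 and 1 to 12 (12 without 9055) without TMM, without 9210 and 9121 and with single mice left out, beside 11.4%, 36.8% and 25.4% to 33.9% of all genes (33.9% without 9055). The median log2 fold change was 0.25 without TMM (42 positive, 2 negative; 41 and 3 with upper quartile scaling), and 0.00 to 0.17 with single mice left out. With 1 mouse left in a group, that mouse is assumed to vary like the others, and fewer mice make separation easier.

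Genes near 0 changed sign. Under the first pair of settings the median of all genes moved as well, to 0.067 and 0.17, and each of these genes stayed below it. With upper quartile scaling, *Atp5b* was at 0.061, *Uqcrc2* 0.055 and *Uqcrfs1* 0.045. Without TMM, *Atp5b* was at 0.16, *Sdhc* 0.039, *Uqcrc2* 0.16 and *Uqcrfs1* 0.15. With no filter *Uqcrc1* was at -0.0068, and with at least 1 CPM in 3 mice *Atp5b* at 0.0057. Without 9210 and 9121, *Atp5b* was at 0.055 and *Uqcrc2* at 0.029. With single mice left out, the ranges were -0.035 to 0.070 for *Sdha*, -0.059 to 0.17 for *Sdhb*, -0.087 to 0.096 for *Uqcrc1*, -0.096 to 0.077 for *Uqcrc2*, -0.11 to 0.065 for *Uqcrfs1*, -0.055 to 0.045 for *Atp5b*, -0.013 to 0.092 for *Atp5a1*, -0.030 to 0.15 for *Atp5c1*, -0.040 to 0.12 for *Atp5sl*, -0.0096 to 0.17 for *Cox6a1*, -0.014 to 0.16 for *Cox6b1* and -0.0034 to 0.20 for *Cox7a2*. None of these passed the threshold.

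No paired analysis was possible because the mice of the groups carry numbers of their own and share none. The 2 wildtype mice differed by a median of 1.13-fold over the members, more than the median difference between genotypes, and for *Cox8b*, *Cox4i2*, *Cox7b2* and *Cox8c* the counts limit what can be seen.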
